A study of Homo sapiens with 64 samples.

Results

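The interferon-stimulated genes (ISGs) described here are 35 of the 54127 genes counted in each library. They were taken by gene symbol from a list of genes that cells switch on in response to interferon, and the rule uses no measured value. By role they are 4 transcription factors, 3 sensors of RNA, 4 IFIT proteins, 4 members of the OAS family, 2 MX GTPases, 4 membrane proteins that restrict virus entry or release, 3 genes of the ISG15 system, 2 PARP proteins and 9 other effectors. All 35 were matched to a row of the counts.

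Interferons bind receptors on the cell surface, and the receptor-bound JAK kinases then phosphorylate STAT proteins. STAT2 and IRF9 are parts of the complex ISGF3, which binds the interferon-stimulated response element (ISRE) in the promoters of ISGs, while IRF1 and IRF7 are transcription factors that are themselves induced and can bind related elements. The products block virus entry, translation and RNA replication, and in epithelial tumor cells a basal level of these genes is known without any virus.

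The libraries came from colorectal cancer (CRC) cell lines grown as nonadherent spheroids with bFGF and EGF. For the main comparison, cells of 6 lines were stained with CFSE, a dye whose amount per cell falls with every division, grown for 6 days and sorted into label-retaining cells (LRCs), which kept the dye, and non-LRCs, the bulk of cycling cells. Groups of 4 LRC and 4 non-LRC libraries were made from HT55 and SW948 (subtype CCS1), RKO and SW48 (CCS2) and DLD1 and HCT15 (CCS3), 48 sorted libraries in all. A further 16 libraries labelled DLD1 were unsorted controls, with or without CFSE, taken at day 1 or at a time that the labels give as day 5 and the study's design as day 6, again with 4 libraries in each of the 4 groups. The labels name no interferon or virus in any group, each line is a single established cell line, and the study's methods describe the experiments as done in biological quadruplicate. The labels do not say what separates the replicates, so p-values measure the spread between these libraries. Expression is given as CPM, counts scaled to a common library total, and differences as log2 fold changes ± SE from edgeR's quasi-likelihood test, with p-values adjusted by Benjamini-Hochberg over all genes tested and called at 0.05.

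Between 12237225 and 20913455 reads per library fell on genes. Mitochondrial genes held 7.01% to 10.5% of them in RKO LRCs and 4.47% to 6.57% in RKO non-LRCs. In SW48 they held 13.8% to 14.2% and 9.66% to 11.3%, and in the other lines the populations overlapped. The part of this share in the results was not tested. In bulk RNA, a change in the number of expressing cells and a change in RNA per cell cannot be told apart. All 48 sorted libraries correlated best with the other sorted libraries of their labelled line, a check that cannot see an exchange of whole lines. The 16 controls, however, did not match the sorted libraries of the same label. Over 818 genes, the sorted DLD1 and HCT15 means differed by more than 2 on the log2 scale. With sorted DLD1 set at 0 and sorted HCT15 at 1, the controls had median positions of 0.923 to 1 over these genes. All 16 correlated best with sorted HCT15 (r = 0.951 to 0.992 across genes, against 0.915 to 0.955 with sorted DLD1). These values cannot tell whether the controls or the sorted DLD1 and HCT15 libraries carry a wrong label, and all lines are named as labelled. The 16 are therefore called the controls labelled DLD1 and were not compared with the sorted libraries. Within them, the library labelled unlabeled day 1 replicate 4 lay at 0.797 on an axis from the other 3 unlabeled day 1 libraries (0) to unlabeled day 5 (1) over 2478 genes, within reach of the day 5 libraries (0.802 to 1.17), and the counts and leading genes of the controls are given with and without it. Among the sorted libraries, replicate 2 of HT55 and of SW48 stood farthest from the others of their groups. Outside RKO, the epithelial markers EPCAM, CDH1, KRT8, KRT18 and KRT19 stayed at or above 261 CPM. In SW48, VIL1 was at 2.50 to 4.71 CPM, CDH17 at 19.6 to 57.5 CPM and CDX2 at 31.5 to 50.5 CPM. In RKO, CDH1 did not exceed 1.35 CPM and KRT19 1.60 CPM. KRT8 ranged from 67.6 to 121 CPM there and KRT18 from 111 to 162 CPM. The immune marker CD3E was at 0 in every library and PTPRC at or below 0.0679 CPM outside SW48, where it ranged from 7.47 to 22.1 CPM. CD79A, ALB and COL3A1 did not exceed 1.55 CPM. Other listed markers of non-epithelial cells were not absent. CD68 ranged from 991 to 1570 CPM in RKO and COL1A1 from 4.41 to 13.1 CPM in SW948. CD14 ranged from 5.59 to 8.75 CPM in HCT15 and from 4.57 to 9.55 CPM in the controls.

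The promoters of many members hold a common short sequence. RefSeq promoter windows (GRCh38.p14, 250 bases before to 50 after the start) were found for 28 of the 35 genes, and the ISRE core was searched on both strands as the half-site GAAA, any 2 bases, and GAAA again. It was found in 18 of the 28 windows (64.3%), against 3.57% of 35116 promoters of all genes, and 13 of the 28 (46.4%, against 0.259% of all promoters) held 2 or more matches. The STAT-binding GAS core (TTC, any 3 bases and GAA) was found in 9 of the 28 (32.1%, against 7.66%). The 6 stretches below come from genes whose levels carry the results that follow. They end before the transcription start, capitals mark the ISRE core on either strand, and the positions are exact matches to GRCh37.
IFIT1, chr10:91152239-91152311, + strand: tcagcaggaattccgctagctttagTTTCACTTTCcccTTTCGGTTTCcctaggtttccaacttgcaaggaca
IFIT3, chr10:91087573-91087666, + strand: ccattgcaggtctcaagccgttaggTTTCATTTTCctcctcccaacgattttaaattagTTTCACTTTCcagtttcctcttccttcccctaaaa
ISG15, chr1:948739-948804, + strand: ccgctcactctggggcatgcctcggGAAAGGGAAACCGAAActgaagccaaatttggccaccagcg
IFITM3, chr11:320861-320937, - strand: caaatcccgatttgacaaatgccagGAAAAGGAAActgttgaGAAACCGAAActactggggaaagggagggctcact
BST2, chr19:17516529-17516594, - strand: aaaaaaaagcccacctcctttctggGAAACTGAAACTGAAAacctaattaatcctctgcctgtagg
IFI6, chr1:27998762-27998884, - strand: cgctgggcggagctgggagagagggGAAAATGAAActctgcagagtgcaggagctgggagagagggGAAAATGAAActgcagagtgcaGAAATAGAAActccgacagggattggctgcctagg

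In IFIT1 the pair of matches lay on the opposite strand and 3 bases apart, and in ISG15 and BST2 they overlapped by 4 bases. IFIT1, IFIT3 and ISG15 were higher in LRCs while IFITM3 was lower, although each holds 2 matches, and the BST2 matches stood before a gene that was near 0 in 5 of the 6 lines. No match was found in this window for RSAD2, STAT2, DDX58, HERC6, PARP9 or XAF1, nor for OAS1, IRF1, IRF9 or IFI35, each of which had a GAS match. A match is a description of the letters in this window.

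Across the 6 lines, LRCs held more RNA of 10 members than non-LRCs and less of 3. The increase was largest for RSAD2 (viperin, which makes a chain-terminating nucleotide) and next for IFIT1, which binds viral RNA and blocks its translation, and IFIT2 and IFIT3 of the same family rose too. The decrease was in IFITM2, IFITM3 and USP18. Of 34 members with enough reads for this fit (IFI44L was too low), 10 passed in the higher direction, against 12.2% of 16603 genes, and 3 in the lower direction, against 10.7%. The median log2 fold change was 0.14 over the members and 0.01 over all genes, and 28 of the 34 were above 0. Without RKO, 8 of the 13 kept their call (RSAD2, IFIT1, IRF1, IRF7, ISG15, MX2, OASL and IFITM3), and 6 and 7 members were called without replicate 1 and 3 of every group, against 14.8% and 13.7% of genes. Of the lower calls, USP18 was lost in 11 of 17 alternatives, and IFITM2 was lost in 9 of 17 and turned in 1. IFITM3 was lost without SW48 and without replicate 3. Of the higher calls, RSAD2 and IFIT1 were kept in all 17 alternatives that tested them, and IRF1 and IRF7 in all 18. PARP14 was lost in 5 of 18, IFIT2 and IFIT3 each in 3 of 17 and MX2 in 2 of 17. OASL was lost in 1 of 17 and ISG15 in 1 of 18. Without replicate 2 of HT55 and SW48, an alternative chosen after seeing the data, 15 members were called (11 higher, 4 lower), against 25.3% of 16537 genes. Proliferation markers moved with the comparison: 4 of 8 passed (6 without those libraries), all lower in LRCs, and their part in the ISG results was not tested. Their direction was not the same in each line alone. All 8 were below 0 in RKO, SW48 and DLD1, and 5 were in SW948. In HCT15 all 8 were above 0 (median log2 fold change 0.22) and in HT55 6 were (median 0.05). Of these markers 7 were called in RKO and 7 in DLD1, and 0 in HT55, SW948, SW48 and HCT15.

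**Figure D1:**
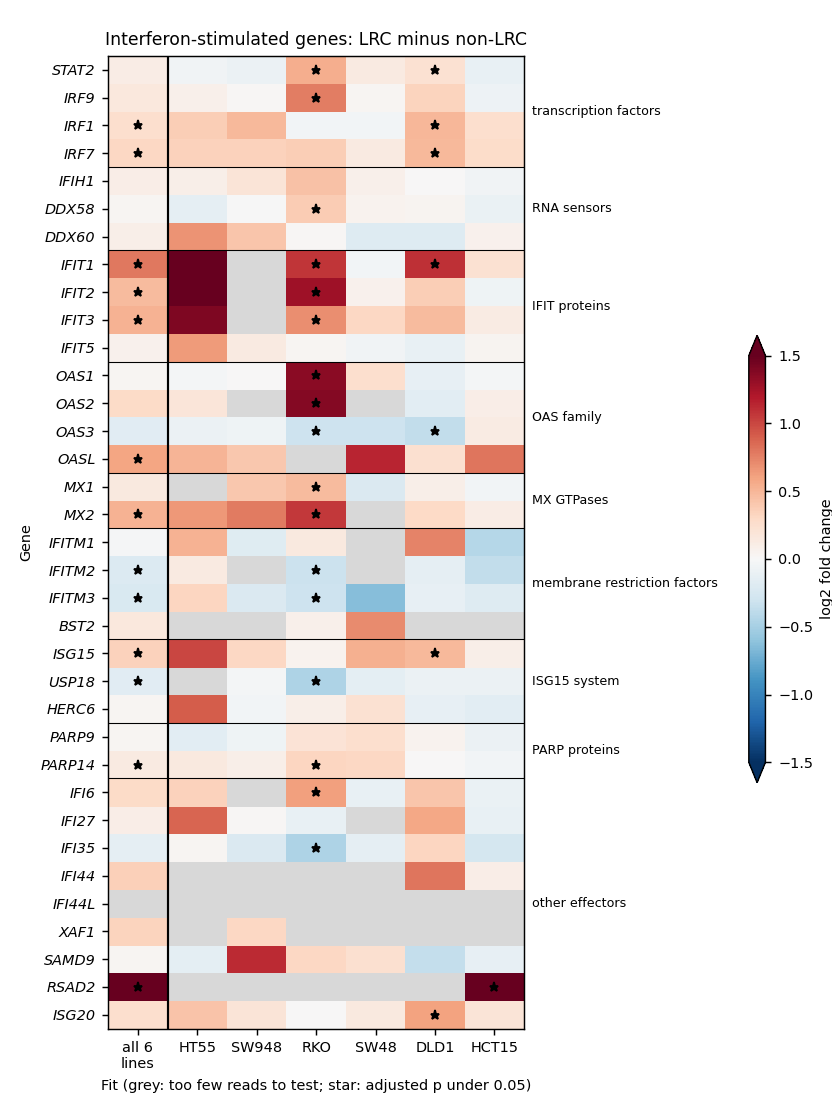
Log2 fold change between LRCs and non-LRCs (color) of each of the 35 genes (vertical axis, by role) in the fit across 6 lines and in each line alone (horizontal axis), with a star where the edgeR adjusted p was under 0.05 and grey where reads were too few. RKO carries 17 stars, DLD1 7 and HCT15 1, while HT55 has dark cells for IFIT1, IFIT2 and IFIT3 with no star.

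RSAD2 had the smallest p of the members across lines (log2 fold change 1.62 ± 0.29, edgeR adjusted p = 4.65e-05). It was measured at 5.49, 7.40, 5.99 and 4.49 CPM in the HCT15 LRCs and 1.35, 1.81, 1.74 and 1.16 CPM in the HCT15 non-LRCs, so that every LRC library was above every non-LRC library. In SW948 it stood at 2.21, 1.05, 1.38 and 0 CPM in LRCs and at 0, 0, 0.0646 and 0 CPM in non-LRCs, so that 1 LRC library had no read, like 3 of the non-LRC libraries. In HT55 it was at 0.216, 0.252, 0.635 and 0.458 CPM in LRCs and 0, 0.153, 0.0772 and 0.0739 CPM in non-LRCs, without overlap. In RKO, SW48 and DLD1 the groups overlapped and no library exceeded 1.03 CPM.

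Of the 4 IFIT genes 3 passed. IFIT1 rose across lines (log2 fold change 0.79 ± 0.20, edgeR adjusted p = 0.00348). It was at 8.41, 6.59, 10.6 and 7.23 CPM in the DLD1 LRCs and 4.18, 3.03, 3.92 and 4.53 CPM in the DLD1 non-LRCs, with no overlap. In HCT15, where its level was the highest, 9.29, 8.83, 12.8 and 10.7 CPM in LRCs overlapped with 8.77, 6.29, 11.6 and 9.13 CPM in non-LRCs. In SW48 replicate 2 of both populations (4.28 and 4.98 CPM) stood above the other 6 libraries, which lay between 1.12 and 2.38 CPM. IFIT3 (log2 fold change 0.52 ± 0.15, edgeR adjusted p = 0.00833) and IFIT2 (log2 fold change 0.48 ± 0.14, edgeR adjusted p = 0.0118) also rose, and IFIT5 had a value of 0.07 that did not pass.

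Of the transcription factors, IRF7, which drives the later wave of interferon production, rose across lines (log2 fold change 0.32 ± 0.07, edgeR adjusted p = 0.000879) and was above 0 in each of the 6 lines alone. It was at 34.1, 35.4, 31.4 and 26.3 CPM in the DLD1 LRCs and 22.02, 25.8, 23.5 and 21.2 CPM in the DLD1 non-LRCs. IRF1, a factor that also responds to interferon gamma, rose by less (log2 fold change 0.25 ± 0.06, edgeR adjusted p = 0.00109). Its DLD1 libraries held 17.1, 18.8, 18.8 and 16.4 CPM in LRCs and 12.1, 12.5, 13.995 and 12.7 CPM in non-LRCs, and its HCT15 libraries 20.1, 20.2, 21.2 and 19.8 CPM and 16.9, 15.95, 18.3 and 18.1 CPM, without overlap in either line. STAT2 (log2 fold change 0.11 ± 0.05, edgeR adjusted p = 0.125) and IRF9 (log2 fold change 0.16 ± 0.08, edgeR adjusted p = 0.148), which are parts of ISGF3, did not pass across lines.

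Among the antiviral enzymes, OASL, a member of the OAS family without synthase activity, rose (log2 fold change 0.59 ± 0.15, edgeR adjusted p = 0.0031) while OAS1, OAS2 and OAS3, synthases that are activated by double-stranded RNA, did not pass. In SW48 OASL was at 1.01, 0.959, 2.19 and 1.18 CPM in LRCs and 0.349, 0.808, 0.671 and 0.537 CPM in non-LRCs, and in HCT15 at 2.94, 3.12, 3.06 and 1.63 CPM and 1.59, 1.06, 1.68 and 1.91 CPM, with no overlap in SW48. MX2, a GTPase that acts on incoming viral capsids, rose (log2 fold change 0.52 ± 0.15, edgeR adjusted p = 0.0072). In HT55 MX2 was at 4.03, 3.95, 3.87 and 3.13 CPM in LRCs and 2.03, 2.91, 2.62 and 1.996 CPM in non-LRCs, and the groups did not overlap. ISG15, a ubiquitin-like modifier, rose (log2 fold change 0.35 ± 0.09, edgeR adjusted p = 0.00267), with 40.6, 38.5, 36.5 and 31.6 CPM in DLD1 LRCs and 26.6, 30.6, 26.4 and 23.1 CPM in DLD1 non-LRCs. Its protease USP18, which also damps receptor signaling, fell by 0.17 on the log2 scale (edgeR adjusted p = 0.0444), and its reads are uncertain because of a near-identical copy in the genome. PARP14, an ADP-ribosyltransferase, rose by the smallest amount (log2 fold change 0.13 ± 0.04, edgeR adjusted p = 0.0211).

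Of the 4 membrane restriction factors 2 fell. IFITM3, which hinders fusion of virus with endosomes, fell by 0.23 on the log2 scale (SE 0.07, edgeR adjusted p = 0.00906) and was at 39.1, 62.4, 45.1 and 44.1 CPM in the SW48 LRCs and 64.6, 92.5, 66.7 and 74.2 CPM in the SW48 non-LRCs. Every SW48 LRC library was below every SW48 non-LRC library, whereas in HT55 the groups overlapped, within 5.22 to 10.4 CPM. IFITM2 fell by 0.21 (SE 0.08, edgeR adjusted p = 0.042), and it was near 0 in HT55, SW948 and SW48, with no library above 1.60 CPM. When each line was given its own mean in both populations and the 6 differences were averaged, the IFITM2 value was 0.44 (edgeR adjusted p = 0.0329), the only direction that turned among the calls across lines. The 3 IFITM genes are close copies of each other, so reads that fit more than 1 of them can be lost or misplaced and their counts are uncertain. IFITM1 and BST2 (tetherin) did not pass.

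**Figure D2:**
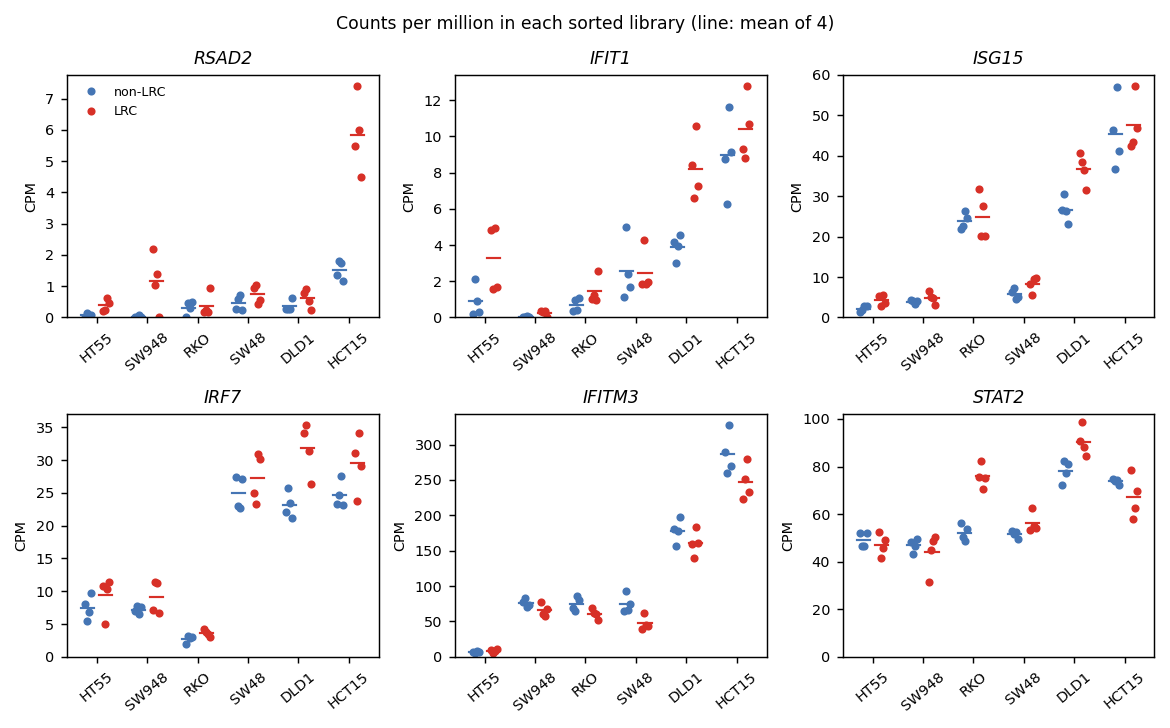
CPM (vertical axes, linear, from 0) of 6 members in each sorted library, by cell line (horizontal axis), with non-LRCs in blue, LRCs in red and a line at the mean of 4. RSAD2 separates the populations in HCT15, STAT2 in RKO, and IFITM3 is lower in LRCs of SW48.

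RKO had most of the calls within a single line. In RKO alone, 12 of 30 members rose in LRCs, against 20.4% of 12731 genes, and 5 fell, against 21%. STAT2 and IRF9 rose in this line. STAT2 was at 75.6, 82.5, 70.5 and 75.4 CPM in the RKO LRCs and 56.1, 50.5, 48.7 and 53.6 CPM in the RKO non-LRCs (log2 fold change 0.54 ± 0.08, edgeR adjusted p = 5.11e-05). IRF9 was at 6.76, 8.61, 7.13 and 6.59 CPM in the RKO LRCs and 3.83, 4.60, 4.39 and 4.26 CPM in the RKO non-LRCs (log2 fold change 0.77 ± 0.15, edgeR adjusted p = 0.000627). For both genes every LRC library was above every non-LRC library.

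The RKO targets with the smallest p were MX1 and IFIT2. MX1, a GTPase that traps viral nucleocapsids, was at 38.6, 33.2, 36.2 and 36.99 CPM in the RKO LRCs and 26.5, 26.5, 23.6 and 27.8 CPM in the RKO non-LRCs (log2 fold change 0.47 ± 0.08, edgeR adjusted p = 0.000308). IFIT2 was at 2.79, 3.76, 2.46 and 3.69 CPM in the RKO LRCs and 1.43, 1.55, 1.18 and 1.19 CPM in the RKO non-LRCs (log2 fold change 1.27 ± 0.23, edgeR adjusted p = 0.000406), again without overlap. OAS1 (1.35) and OAS2 (1.38) rose from low levels: OAS1 went from 0.827, 0.648, 0.627 and 0.501 CPM in non-LRCs to 1.94, 1.82, 1.39 and 1.48 CPM in LRCs. IFIT1, IFIT3, MX2, IFI6, PARP14 and the RNA sensor DDX58 (RIG-I) rose as well. IFITM2, IFITM3, USP18, IFI35 and OAS3 fell, by 0.32, 0.31, 0.46, 0.46 and 0.31 on the log2 scale. Of the 8 proliferation markers, 7 were lower in LRCs of RKO, as in DLD1, and their part in these differences was not tested. Without replicate 4 of both populations, 10 members were called (8 higher, 2 lower), against 27.3% of genes in either direction.

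In DLD1 alone, 6 of 31 members rose in LRCs, against 6.67% of 13592 genes, and 1 fell, against 7.89%. The increases were in IFIT1 (log2 fold change 1.10 ± 0.18, edgeR adjusted p = 0.00408), IRF1 (log2 fold change 0.50 ± 0.08, edgeR adjusted p = 0.0049), ISG15, IRF7, STAT2 and ISG20, an RNA exonuclease. OAS3 fell by 0.37 on the log2 scale (edgeR adjusted p = 0.00328), from 203, 176, 182 and 193 CPM in non-LRCs to 155, 144, 135 and 141 CPM in LRCs, with no overlap. With the replicate number as a block, 16 of the 31 were called (12 higher, 4 lower), against 33.8% of all genes, and these included IFI6 at 0.42 (edgeR adjusted p = 0.000639) and IRF9 at 0.33 (edgeR adjusted p = 0.00467). Without replicate 1 or replicate 3, 3 members were called, against 4.35% and 4.82% of genes. The members called higher in both RKO and DLD1 were IFIT1 and STAT2, and OAS3 was called lower in both. How many of all genes were called in both lines was not counted, so this overlap has no background beside it.

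In HCT15 alone, RSAD2 was the only one of 32 members called (log2 fold change 1.96 ± 0.21, edgeR adjusted p = 0.0105). It rose, against 0.728% of 14017 genes, and no member fell, against 0.25%. At an unadjusted p under 0.05, 2 members were lower, as were 1121 of 14017 genes, and DESeq2 called 1 lower. The median over the members was -0.04, and 14 of 32 were above 0. With the replicate block 7 of 32 were called, a share near the 21.3% of all genes. RSAD2, OASL, IRF7 and IRF1 were higher, and IFITM1, IFITM2 and IFITM3 lower. IFITM2 then had a value of -0.37 (edgeR adjusted p = 0.000609), with 92.7, 114, 120.2 and 109 CPM in LRCs and 136, 132, 162 and 140.2 CPM in non-LRCs. Every LRC library was below every non-LRC library. IFI6, a small membrane protein of the same family as IFI27, with 3 ISRE matches in its promoter, showed another pattern in this line: 18.5, 22.8, 60.2 and 47.3 CPM in LRCs and 24.1, 20.6, 63.8 and 52.03 CPM in non-LRCs, so that replicates 1 and 2 were below replicates 3 and 4 in both populations. Without replicate 1, 2 or 3 of both populations, no member of HCT15 was called by edgeR, as was no gene at all, at 2, 4 and 4 members with an unadjusted p under 0.05. The share of all genes at that unadjusted p was not counted.

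In HT55 alone, none of 28 members was called in either direction (0% of 13391 genes were). At an unadjusted p under 0.05 were 11 members, all of them higher in LRCs, against 1005 of 13391 genes, 572 of them higher. The median was 0.34 over the members and -0.003 over all genes. DESeq2 also called 0. The smallest p was for ISG15 (log2 fold change 1.002 ± 0.29, edgeR adjusted p = 0.507), at 5.40, 2.94, 5.54 and 3.66 CPM in the HT55 LRCs and 1.38, 1.76, 2.93 and 2.81 CPM in the HT55 non-LRCs. IFIT1 was at 4.82, 1.60, 4.96 and 1.68 CPM in LRCs and 0.217, 2.14, 0.926 and 0.296 CPM in non-LRCs, where non-LRC replicate 2 was above 2 of the LRC libraries. Without replicate 2 of both populations, 9 members were called, all higher, against 6.13% of genes. These were IFIT1 at 3.03 (edgeR adjusted p = 0.00205), IFIT2 at 2.05 (edgeR adjusted p = 0.016) and IFIT3 at 1.996 (edgeR adjusted p = 0.0117), followed by IRF1, ISG20, IFITM1, ISG15, IFIT5 and IFI27.

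In SW948 alone none of 25 members was called by edgeR in either direction (0% of 13674 genes), and DESeq2 likewise called 0. At an unadjusted edgeR p under 0.05 were 8 members, 6 of them higher, against 2350 of 13674 genes, 1472 of them higher. IRF1 had the smallest p (log2 fold change 0.49 ± 0.14, edgeR adjusted p = 0.159), at 15.8, 16.4, 17.1 and 11.1 CPM in the SW948 LRCs and 12.4, 10.4, 10.9 and 9.45 CPM in the SW948 non-LRCs. MX1 was at 9.49, 7.41, 8.11 and 6.49 CPM in LRCs and 5.78, 6.24, 6.01 and 5.78 CPM in non-LRCs, and SAMD9, which inhibits poxvirus replication, at 1.14, 1.51, 1.45 and 0.618 CPM and 0.444, 0.601, 0.646 and 0.450 CPM. MX1 did not overlap between the groups (log2 fold change 0.41 ± 0.14, edgeR adjusted p = 0.198), and SAMD9 did, with the LRC replicate 4 inside the non-LRC range.

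In SW48 alone none of 26 members was called by edgeR, against 0.72% of 13196 genes higher and 0.0758% lower. At an unadjusted p under 0.05 were 4 of the 26, a share near that of all genes (1728 of 13196). DESeq2 called 1, lower. The smallest p was for IFITM3 (log2 fold change -0.64 ± 0.16, edgeR adjusted p = 0.114), whose values are given above. With the replicate block 2 of 26 were called, no more often than the 9.69% of all genes. These were IFITM3, lower at -0.64 (edgeR adjusted p = 0.000414), and PARP14, higher at 0.31 (edgeR adjusted p = 0.0401). PARP14 was at 79.1, 87.5, 70.3 and 73.8 CPM in the SW48 LRCs and 53.5, 68.4, 66.5 and 64.6 CPM in the SW48 non-LRCs. Without replicate 2, 2 were called, against 3.84% of genes, IFITM3 at -0.67 (edgeR adjusted p = 0.00229) and ISG15 at 0.81 (edgeR adjusted p = 0.0246). OAS3 showed how far replicate 2 stood apart, at 26.97, 78.5, 34.8 and 35.1 CPM in LRCs and 28.3, 109.6, 39.3 and 41.5 CPM in non-LRCs.

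Whether the LRC difference varied between lines was tested directly. It did for 8 of 34 members, against 14.3% of 16603 genes: STAT2, OAS1, IFITM2, IFIT2, RSAD2, IFITM3, IFITM1 and IFI35. STAT2 (edgeR adjusted p = 0.00106) differed by 0.54 in RKO and -0.12 in HCT15, and OAS1 (edgeR adjusted p = 0.00292) by 1.35 in RKO and -0.13 in DLD1. IFITM1 (edgeR adjusted p = 0.0432) differed by 0.74 in DLD1 and -0.42 in HCT15, the lines of the same subtype. With line and replicate number as blocks the count was 21, against 33.6% of genes, and without replicate 2 of HT55 and SW48 it was 17, against 24.5%. Without replicate 1, 3 or 4 it was 2, 1 and 2, against 3.2%, 4.88% and 5.4% of genes. In the tests of a higher or lower level with all libraries and no block, across lines and in each line alone, 11 members were not called: the sensors IFIH1 and DDX60, IFIT5, IFITM1, BST2, HERC6, PARP9, IFI27, IFI44, XAF1 and SAMD9. IFI44L had too few reads for any of the fits.

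The wider pathway was read from a second list, chosen like the members with earlier results of these data known. Of 21 interferon ligand genes, 7 had no read in any of the 64 libraries, and the 20 other than IFNE had 45 reads together. IFNE, an interferon of epithelia, had 1704 reads. In SW48 it was at 11.8, 14.5, 7.19 and 8.54 CPM in LRCs and 14.1, 10.5, 12.7 and 15.4 CPM in non-LRCs (log2 fold change -0.31 ± 0.21, edgeR adjusted p = 0.575). In every other group it was at or below 1.51 CPM, and HT55 had no read of it. The receptors were present in every group, IFNAR1 with group means from 50.2 to 107.6 CPM and IFNAR2 from 10.9 to 46.1 CPM. Across the 6 lines, 15 of 60 pathway genes passed, 13 higher and 2 lower in LRCs, with or without replicate 2 of HT55 and SW48, and their median log2 fold change was 0.04. That share was near the background, as 22.9% of all genes passed in either direction, and 25.3% without those libraries. ZNFX1, a helicase that senses viral RNA (log2 fold change 0.31 ± 0.04, edgeR adjusted p = 2.89e-07), and GBP2, a GTPase induced by interferon gamma (log2 fold change 1.29 ± 0.18, edgeR adjusted p = 7.22e-07), led the higher ones. GBP2 was at 7.26, 6.55, 5.08 and 5.69 CPM in the RKO LRCs and 1.05, 0.518, 0.705 and 1.19 CPM in the RKO non-LRCs, with no overlap. STAT3 (log2 fold change 0.13 ± 0.03, edgeR adjusted p = 0.00116) and SAMD9L (log2 fold change 0.74 ± 0.19, edgeR adjusted p = 0.00375) followed, and TRIM14 (log2 fold change -0.19) and LAP3 (-0.11) fell.

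The level of members was then compared between lines. All 33 members tested in non-LRCs differed between lines, as did 98.3% of 15779 genes. Averaged over the members, the log2 CPM of non-LRCs was 3.75 ± 0.20 (SD, n = 4) in HCT15, 3.23 ± 0.04 in DLD1 and 2.78 ± 0.07 in RKO. It was 2.05 ± 0.09 in SW948, 1.92 ± 0.19 in SW48 and 1.89 ± 0.14 in HT55, and these 3 lines lay within their spread of each other. In LRCs the same means were 3.80 ± 0.14 in HCT15, 3.41 ± 0.09 in DLD1, 3.05 ± 0.06 in RKO, 2.36 ± 0.20 in SW948, 2.29 ± 0.16 in HT55 and 2.05 ± 0.14 in SW48. The LRC and non-LRC libraries did not overlap in this mean in HT55, RKO and DLD1. They overlapped in SW948, SW48 and HCT15. In SW948, LRC replicate 4 (2.06) lay inside the range of the non-LRCs (1.94 to 2.15). In SW48 and HCT15, where numbers also paired the samples, LRCs were above non-LRCs in 4 and 3 of 4 same-numbered pairs.

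Each line was also set against the mean of the other 5, calling an adjusted p under 0.05 with a log2 difference of at least 1. In HCT15, 21 of 33 members were higher (16.7% of genes) and 1 lower (6.03%), and in DLD1, 19 were higher (15%) and 5 lower (6.61%). In RKO, 11 were higher (14.2%) and 6 lower (21.6%). In SW48, 5 were higher (15%) and 9 lower (11.2%), and in SW948, 6 were higher (18.1%) and 11 lower (11.2%). In HT55, 8 were higher (20%) and 13 lower (14.6%). No single order held for all members, since HT55 was highest for OAS1 and lowest for MX1.

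The member with the widest range was BST2, a membrane protein that tethers budding virions. In RKO non-LRCs it was at 293, 290.2, 344 and 329.98 CPM, and in the non-LRCs of the other 5 lines no library exceeded 0.691 CPM. IFITM2 was at 164, 159, 205 and 188 CPM in RKO, 136, 132, 162 and 140.2 CPM in HCT15 and 113, 93.8, 120.4 and 125 CPM in DLD1. In the non-LRCs of HT55, SW948 and SW48 it stayed at or below 1.26 CPM, so IFITM2 split the lines into 2 sets with no overlap.

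OAS1 gave another order. It was at 334, 283, 345 and 348 CPM in HT55 and 101, 96.8, 101 and 97.6 CPM in SW948, the CCS1 lines. It was at 59.8, 56.6, 59.4 and 59.96 CPM in DLD1 and 22.95, 20.8, 26.8 and 23.9 CPM in HCT15, and at or below 2.29 CPM in SW48 and RKO. IFI27, a small hydrophobic membrane protein, was high in SW948 (64.9, 63.3, 59.8 and 60.9 CPM) and in RKO (31.8, 32.2, 36.99 and 34.05 CPM) and did not exceed 5.33 CPM elsewhere.

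HERC6, a ubiquitin ligase of the HERC family, was highest in DLD1, at 64.3, 61.7, 67.95 and 66.995 CPM, and lowest in HT55, at 0.580, 0.841, 0.463 and 1.11 CPM. MX1 was highest in HCT15, at 31.01, 23.7, 46.4 and 38.8 CPM, and lowest in HT55, at 0.217, 0.459, 0.772 and 0.0739 CPM. The HCT15 libraries overlapped in MX1 with those of RKO (26.5, 26.5, 23.6 and 27.8 CPM). STAT2 differed less and ran from a mean of 46.9 CPM in SW948 to 78.2 CPM in DLD1, and IRF9 from 4.27 CPM in RKO to 31.9 CPM in HCT15.

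The means of non-LRCs were also set per kilobase of transcript. IFITM3 was then the most abundant member in HCT15 (469 CPM per kb) and in DLD1 (292), BST2 in RKO (314) and OAS1 in HT55 (201). IFITM3 was first in SW948 and SW48 too (125 and 122). ISG15 reached 71.1 CPM per kb in HCT15 and 3.48 in HT55. IFI44L, an ISG of the IFI44 family, and XAF1, a proapoptotic ISG, were at or below 0.251 CPM per kb in the non-LRCs of every line. RSAD2 did not exceed 0.444 in non-LRCs, and its level was higher in HCT15 LRCs, whose CPM values are given above.

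**Figure D3:**
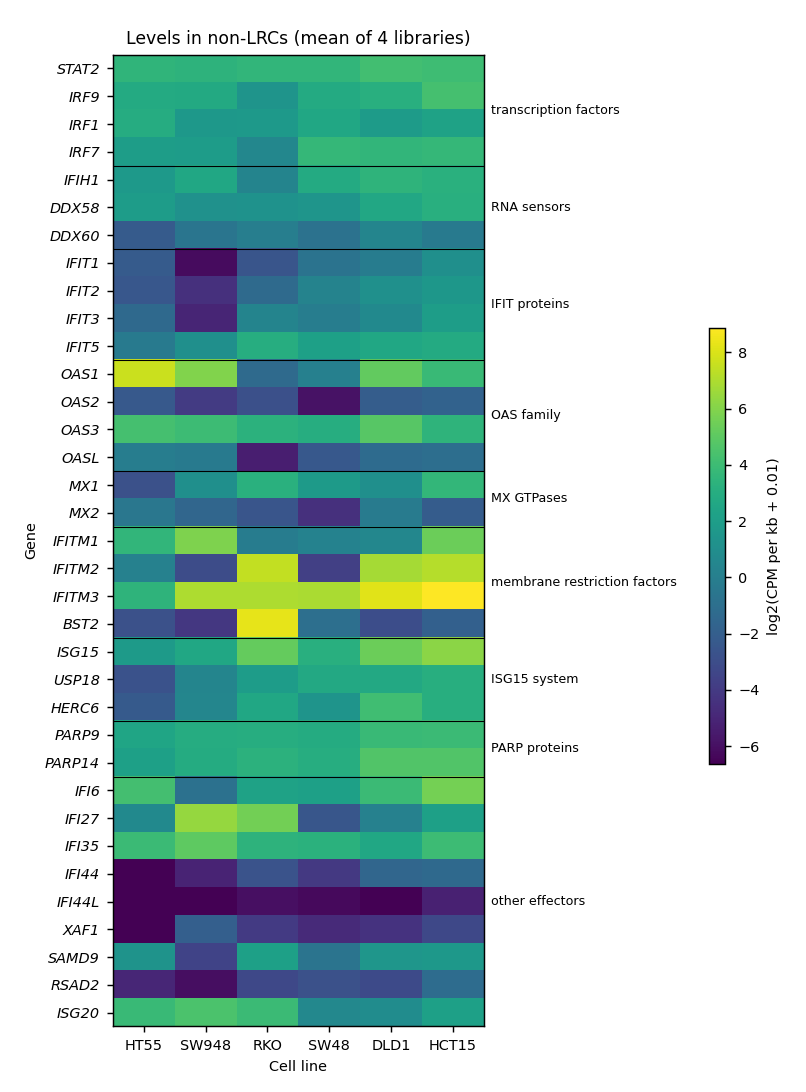
Mean level of each of the 35 genes in non-LRCs, as log2 of CPM per kb plus 0.01 (color), by role (vertical axis) and cell line (horizontal axis). BST2 is bright in RKO and dark elsewhere, IFITM2 is bright in RKO, DLD1 and HCT15, and OAS1 is brightest in HT55.

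In the unsorted controls labelled DLD1, several members rose with time in culture. The share of reads outside features also differed, at 8.96% to 14.8% in the day 1 libraries and 5.19% to 8.35% at day 5. Its part in these results was not tested. Without dye, 8 of 31 members rose from day 1 to day 5, against 12.4% of 14518 genes, and none fell, against 13.1%. At an unadjusted p under 0.05, 1 member was lower, as were 2799 of 14518 genes, and DESeq2 called 1 lower. Without the library labelled unlabeled day 1 replicate 4, 16 rose, against 19.2% of 14450 genes, and 1 (OAS3) fell, against 22.9%. The median over the members was 0.41 with that library and 0.45 without it, against 0.04 and -0.02 over all genes. The alternative was chosen after seeing the data, and leaving out replicate 1, 2 or 3 of all 4 control groups, with that library kept, left 0 members and 0% of all genes called by edgeR, at 6, 7 and 6 members with an unadjusted p under 0.05. How many of all genes had such a p was not counted.

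IFITM1 was at 6.08, 6.12, 5.11 and 14.6 CPM at day 1 and 27.4, 22.8, 18.4 and 18.5 CPM at day 5 (log2 fold change 1.41 ± 0.26, edgeR adjusted p = 0.00564), with a value of 1.79 (edgeR adjusted p = 8.73e-06) without that library. IFITM2 was at 74.95, 74.5, 71.8 and 117 CPM at day 1 and 147, 151, 143 and 144 CPM at day 5 (log2 fold change 0.75 ± 0.13, edgeR adjusted p = 0.00559), and 0.86 (edgeR adjusted p = 1.85e-05) without it. IFITM3 was at 179.7, 198, 160.4 and 249 CPM and 294, 311, 297 and 295 CPM (log2 fold change 0.57 ± 0.13, edgeR adjusted p = 0.00898), and 0.62 (edgeR adjusted p = 0.000459) without it. In all 3 genes every day 5 library was above every day 1 library, and replicate 4 was the highest of day 1.

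IFI6 was at 8.44, 11.6, 7.06 and 25.1 CPM at day 1 and 45.6, 29.7, 39.6 and 29.1 CPM at day 5 (log2 fold change 1.43 ± 0.31, edgeR adjusted p = 0.00821), and 1.88 (edgeR adjusted p = 2.57e-05) without day 1 replicate 4. IFI27 was at 0.419, 0.371, 0.574 and 1.99 CPM and 2.87, 2.20, 3.66 and 2.16 CPM (log2 fold change 1.65 ± 0.42, edgeR adjusted p = 0.0138), and 2.44 (edgeR adjusted p = 4.39e-05) without it. IFIT1 was at 1.52, 1.42, 1.32 and 6.51 CPM and 6.65, 5.74, 7.20 and 5.98 CPM (log2 fold change 1.21 ± 0.40, edgeR adjusted p = 0.0367), and 2.04 (edgeR adjusted p = 2.17e-05) without it. IFIT1 in that library was at the level of day 5 and overlapped with it, while the other 3 day 1 libraries were at or below 1.52 CPM. IRF9 rose by 0.65 and ISG15 by 0.41 on the log2 scale. Without that library IRF9 rose by 0.80 (edgeR adjusted p = 0.00672) and ISG15 by 0.39 (edgeR adjusted p = 0.04), and STAT2 had a value of -0.20 with all libraries that did not pass.

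With CFSE, 20 of 31 members rose from day 1 to day 5, against 20.2% of 14518 genes, and IRF7 fell, against 19.1%. Leaving out the unlabeled library kept 21 calls, against 43.7% of genes called in either direction. The smallest p was again for IFITM2, at 43.01, 51.8, 53.3 and 55.1 CPM at day 1 and 127, 110.1, 121 and 138 CPM at day 5 (log2 fold change 1.21 ± 0.14, edgeR adjusted p = 3.67e-05). IFIT1 was at 0.817, 0.948, 1.60 and 1.79 CPM and 5.81, 5.34, 6.55 and 7.25 CPM (log2 fold change 2.18 ± 0.42, edgeR adjusted p = 0.0012). OAS1 was at 3.08, 2.59, 7.19 and 7.84 CPM and 15.4, 14.4, 19.6 and 24.3 CPM (log2 fold change 1.76 ± 0.38, edgeR adjusted p = 0.00223), with replicates 1 and 2 below replicates 3 and 4 on both days. IRF7 went the other way, from 31.1, 33.9, 20.02 and 21.9 CPM to 15.3, 13.4, 16.3 and 16.03 CPM (log2 fold change -0.88 ± 0.18, edgeR adjusted p = 0.00169). Of the 8 proliferation markers, 2 were lower with time without dye (all 8 without day 1 replicate 4) and 3 higher with CFSE, and their part was not tested. Members called higher with time in both dye groups, which share no library, numbered 5 of the 8 without dye and of the 20 with it, or 13 of the 16 when that library was left out. Of all genes, 12.4% were called higher without dye and 20.2% with it, or 19.2% and 21.5% when that library was left out. The share of all genes called higher in both was not counted, so this overlap has no background beside it.

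In the pathway list, 13 of 57 genes passed with time without dye, 10 higher and 3 lower, and without day 1 replicate 4 it was 22, 18 higher and 4 lower. Over all genes 25.5% passed in either direction, and 42.1% without that library, so the list passed no more often than all genes. Their median was 0.18 with all libraries. The smallest p values were for TRIM22 (log2 fold change -1.77 ± 0.39, edgeR adjusted p = 0.00881), an antiviral ubiquitin ligase, and LGALS3BP (log2 fold change 0.73 ± 0.17, edgeR adjusted p = 0.0101), a secreted glycoprotein. Without that library these were -1.91 (edgeR adjusted p = 0.0018) and 0.88 (edgeR adjusted p = 0.000235). UBE2L6, the conjugating enzyme of ISG15, was at 13.9, 16.7, 13.6 and 35.7 CPM and 50.6, 43.6, 36.6 and 36.8 CPM (log2 fold change 1.03 ± 0.24, edgeR adjusted p = 0.0103), and 1.39 (edgeR adjusted p = 1.92e-05) without it. IRF3, the factor that starts interferon transcription, fell from 106, 103, 83.5 and 44.7 CPM to 41.2, 54.2, 45.4 and 51.2 CPM (log2 fold change -0.86 ± 0.20, edgeR adjusted p = 0.0108), and -1.14 (edgeR adjusted p = 1.38e-05) without it. IRF2, which competes with IRF1, rose (log2 fold change 0.58 ± 0.14, edgeR adjusted p = 0.011), and 0.70 (edgeR adjusted p = 0.00015) without it. In UBE2L6 and IRF3 the day 1 replicate 4 lay at the day 5 side of the other day 1 libraries.

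**Figure D4:**
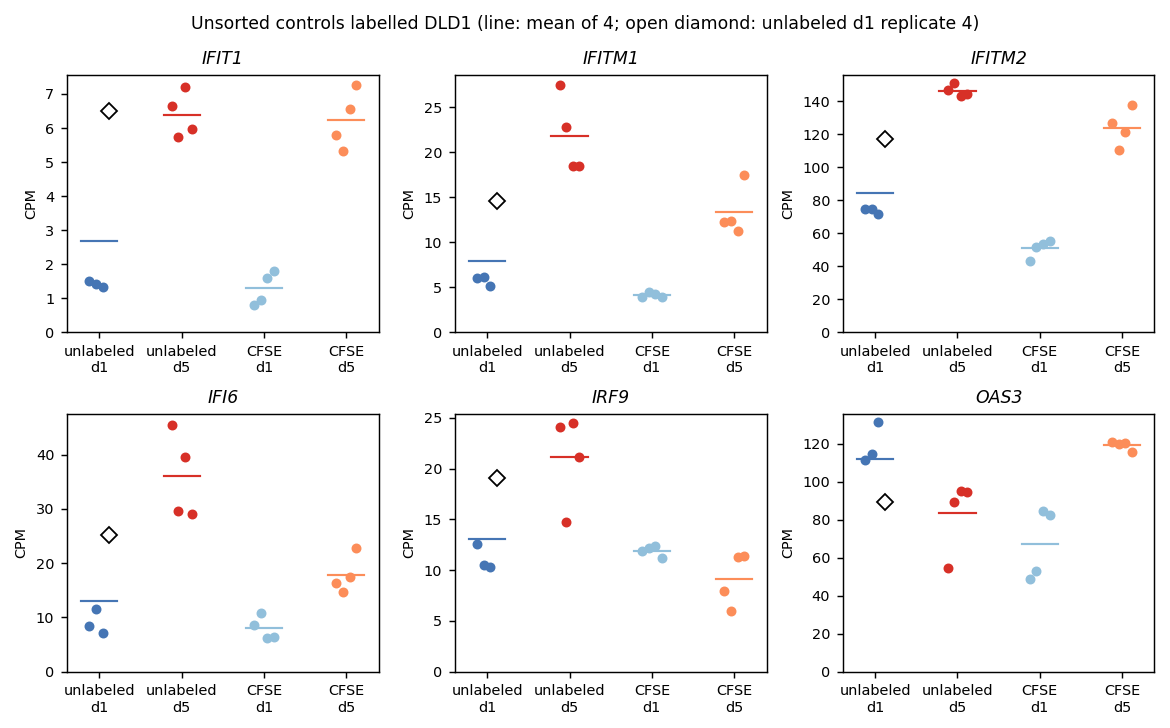
CPM (vertical axes, linear, from 0) of 6 members in each unsorted control labelled DLD1, by dye and day (horizontal axis), with a line at the mean of 4 and an open diamond for the library labelled unlabeled d1 replicate 4. That library is the highest of its group for IFIT1, IFITM1, IFITM2, IFI6 and IRF9 and the lowest for OAS3.

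With all libraries, several members were lower with dye at day 1. With CFSE, 8 of 31 members were lower than without, against 12% of 14518 genes, and 1 was higher, against 9.73%. This comparison shares the unlabeled day 1 libraries with the comparison over time. Without replicate 4 of that group, 6 of 31 members were called, a share near the 18% of all genes. Of these, 4 were lower, against 10.6% of genes, and 2 higher, against 7.39%. IFITM2 was at 43.01, 51.8, 53.3 and 55.1 CPM with dye and 74.95, 74.5, 71.8 and 117 CPM without (log2 fold change -0.70 ± 0.13, edgeR adjusted p = 0.00344), and -0.55 (edgeR adjusted p = 0.0032) without that library. IFI35, a partner of NMI, was at 3.71, 3.16, 6.29 and 5.37 CPM with dye and 9.28, 10.3, 10.8 and 15.1 CPM without (log2 fold change -1.25 ± 0.25, edgeR adjusted p = 0.00383), and -1.13 (edgeR adjusted p = 0.00972) without that library. RSAD2 was higher with dye, at 3.27, 3.79, 2.12 and 2.18 CPM against 0.734, 0.989, 1.15 and 1.40 CPM (log2 fold change 1.45 ± 0.32, edgeR adjusted p = 0.00669), and 1.55 (edgeR adjusted p = 0.0094) without it. In all 3 genes the 2 groups did not overlap. Without that library the log2 fold change of IFIT2 moved from -1.28 to -0.71 (edgeR adjusted p = 0.121), IFITM1 from -0.90 to -0.49 (edgeR adjusted p = 0.0763), OAS1 from -1.24 to -0.78 (edgeR adjusted p = 0.108) and HERC6 from -0.51 to -0.41 (edgeR adjusted p = 0.0682), and none of the 4 passed. The median over the members moved from -0.42 to -0.20.

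At day 5, IRF9 was the only member called with dye. It was lower, against 2.03% of genes, and no member was higher, against 3.11%. At an unadjusted p under 0.05, 2 members were higher, as were 1759 of 14518 genes, and DESeq2 called 0 higher. IRF9 was at 7.96, 5.96, 11.3 and 11.4 CPM with dye and 24.1, 14.7, 24.5 and 21.1 CPM without (log2 fold change -1.20 ± 0.23, edgeR adjusted p = 0.0169), and the groups did not overlap. Without the unlabeled day 1 library, which is in neither group of this comparison but enters the same fit, 4 were called, all lower, against 13.3% of genes: IRF9, IFI27, IFI6 and IFITM1. IFI27 was at 1.15, 0.869, 1.01 and 1.11 CPM with dye and 2.87, 2.20, 3.66 and 2.16 CPM without. Of the 8 proliferation markers, 7 were higher with dye at day 5, and their part was not tested.

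The change over time differed with dye for 1 of 31 members, OAS3, against 0.999% of genes. OAS3 went from 111, 115, 131 and 89.1 CPM to 54.7, 89.3, 95.3 and 94.4 CPM without dye and from 48.9, 53.04, 84.6 and 82.4 CPM to 121, 119.9, 120.3 and 115 CPM with it (log2 fold change 1.22 ± 0.27, edgeR adjusted p = 0.0412 for the difference). Without that library 3 were called, against 6.09% of genes, OAS3 at 1.36 (edgeR adjusted p = 0.00824), IRF9 at -1.28 (edgeR adjusted p = 0.0165) and IFI27 at -1.81 (edgeR adjusted p = 0.0264). In that fit OAS3 changed by -0.64 (edgeR adjusted p = 0.0167) without dye and 0.73 (edgeR adjusted p = 0.00504) with it, and IRF9 by 0.80 (edgeR adjusted p = 0.00672) and -0.48 (edgeR adjusted p = 0.0615). Of the 8 proliferation markers 1 passed, and 6 without that library, and their part was not tested.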

How the data were processed

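RNA of sorted LRCs and non-LRCs of 6 CRC lines and of unsorted controls labelled DLD1 was sequenced as 50-base single-end reads, in 64 libraries and 16 groups of 4. The authors deposited raw counts per gene. The submitters' processing notes name TopHat, HTSeq, DESeq and hg19, with versions not given in the sources used here. Rows that name no gene, such as reads outside features or aligned more than once, held 32.8% of the table and were left out. Reads on genes ranged from 12237225 to 20913455 per library, and no 2 libraries held identical values. Ensembl identifiers were given symbols from GENCODE for GRCh37 and the RefSeq gene table.

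Counts were tested with edgeR 4.0.16 in R 4.3.3 by its quasi-likelihood test, with TMM normalization, a minimum of 10 reads in 4 or more libraries per gene, and Benjamini-Hochberg adjustment over all genes. One fit covered the 6 lines with line as a term, others each line alone, non-LRCs by line, and the 16 controls. Level differences between lines also needed a log2 difference of at least 1. CPM uses TMM over all 64 libraries, and mean log2 CPM covers the 34 members measured in them, with a prior count of 2. The steps were tested on simulated data. The members, the pathway list and the marker lists were chosen with earlier results of these data known. Values in every sample are given for the 6 members with the smallest p across lines, the 3 in each line, the 5 for time without dye, the 3 for dye, the 6 with the widest range between lines, STAT2 and IRF9, and up to 5 pathway genes in each of 2 comparisons. Some pathway genes that this rule names are not reported here. Other values were picked after they were seen.

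Replicate numbers come from the labels, which do not say what they share. Same-numbered samples of both populations deviated together (every correlation of deviations over 0.1) in HT55, SW48, DLD1 and HCT15, as did the CFSE controls over time, and not in SW948, RKO or the other control comparisons. The alternatives were DESeq2 1.42.0, other size factors and filters, the replicate block, 1 fit of all 48 sorted libraries, each replicate or line left out and, chosen after seeing the data, the libraries that stood apart left out. Promoter sequences are from RefSeq (GRCh38.p14).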

Additional observations from a re-analysis of the deposited data

Results flagged for a closer look

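Within each group of 4 libraries, the gap between the highest or lowest library and its nearest neighbour was divided by the whole range of the group, and 22 of 321 groups passed Dixon's critical value. Chance passes about 1 in 20 groups. For the mean log2 CPM of the members, the ratio was 0.84 for DLD1 non-LRC replicate 4 (highest), 0.897 for RKO LRC replicate 4 (highest) and 0.899 for SW948 LRC replicate 4 (lowest). In the library labelled unlabeled day 1 replicate 4 it was 0.915 for IFIT1, 0.871 for MX1 and 0.913 for IFITM2, which were the highest of their group. In SW48 LRC replicate 2 it was 0.927 for IFIT1, 0.938 for MX1 and 0.831 for STAT2, also the highest, and IRF9 was highest in SW48 LRC replicate 4 (0.868). In HT55 LRCs the lowest libraries passed for IRF7 in replicate 2 (0.868), MX2 in replicate 4 (0.837), OAS3 in replicate 3 (0.842) and IFITM1 in replicate 3 (0.859), and in HT55 non-LRCs PARP14 was highest in replicate 2 (0.842). The lowest library also passed for PARP14 in SW948 LRC replicate 1 (0.984), HERC6 in SW948 non-LRC replicate 1 (0.851), OASL in HCT15 LRC replicate 4 (0.904) and IFI35 in HCT15 LRC replicate 2 (0.894). In DLD1 it passed for MX2 in LRC replicate 2 (0.833) and OAS1 in non-LRC replicate 2 (0.85), and in the unlabeled day 5 controls for OAS3 in replicate 1 (0.882).

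The LRC difference varied between lines, by edgeR's quasi-likelihood test of the interaction, for STAT2 (adjusted p = 0.00106), OAS1 (0.00292), IFITM2 (0.0153), IFIT2 (0.0154), RSAD2 (0.0372), IFITM3 (0.0399), IFITM1 (0.0432) and IFI35 (0.0455). The change over time of OAS3 differed with dye in the controls (edgeR adjusted p = 0.0412).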

How the results depend on the processing

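Of 78 calls of named members, 20 kept their call in every alternative tried for them, and over 929 alternatives 739 kept it, 189 kept the direction only, and 1 turned: IFITM2 across the 6 lines, at 0.44 with group means of line and population. With at least 10 counts in every sample, fewer genes were tested, and 6 members were called across lines, 4 varied between lines, 5 changed with time without dye, 13 with CFSE, and 0 differed between the dyes in their change over time. With that filter, 15 differed between lines, and the calls against the other lines numbered 9 in DLD1, 8 in HCT15, 6 in HT55, 6 in RKO, 3 in SW48 and 4 in SW948. Without any filter, 1 was called in HT55, 1 in SW48, 4 in SW948 and 3 for dye at day 5. In 1 fit of all 48 sorted libraries, 1 was called in DLD1, 2 in HCT15, 3 in HT55, 2 in SW48 and 2 in SW948. DESeq2 called 2 in HCT15, 1 in SW48, 3 for dye at day 5 and 2 for the difference in time change, which was 0 with DESeq2 size factors or without TMM. Time without dye gave 5 without TMM. Without the line RKO, 8 were called across lines. For the other moves the cause was not tested. The shares of all genes called under the alternatives of this paragraph were not counted, so these counts have no background beside them.

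With the replicate block, 16 members were called in DLD1 (33.8% of all genes), 7 in HCT15 (21.3%), 2 in SW48 (9.69%), 1 in SW948 (3.66%) and 0 in HT55 (0%). In HCT15 and SW48 the members passed about as often as all genes. With it, 21 varied between lines (33.6%), and 15 changed with dye at day 1 (26.2%), 4 with dye at day 5 (10.4%) and 14 with time without dye (30%). Where numbers paired the samples, the block moved no other count by over 1.5 times.

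Leaving out each replicate in turn gave 6 to 13 calls across lines, 3 to 7 in DLD1, 0 to 1 in HCT15, 0 to 9 in HT55, 10 to 16 in RKO, 0 to 2 in SW48, 0 to 2 in SW948 and 1 to 12 that varied between lines. For the controls it gave 0 to 17 with time without dye, 10 to 20 with CFSE, 2 to 8 for dye at day 1, 0 to 5 for dye at day 5 and 0 to 4 for the difference in time change. Without the library labelled unlabeled day 1 replicate 4 these 5 counts were 17, 21, 6, 4 and 3. Over all genes, leaving out replicate 1, 2 or 3 left 0% called for time without dye, dye at day 5 and the difference in time change, and 2.36% to 15.3% for dye at day 1. Leaving out any 1 of the 4 replicate numbers, the shares of all genes called were 13.7% to 18% across lines, 4.35% to 11.4% in DLD1, 0% to 0.196% in HCT15, 0% to 6.13% in HT55, 27.3% to 37.6% in RKO, 0% to 3.84% in SW48, 0% to 7.02% in SW948, 3.2% to 17.4% for the variation between lines and 20% to 40% for time with CFSE. Without replicate 2 of HT55 and SW48, 17 varied between lines.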
